A study of Gallus gallus with 6 samples.

Results

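The yolk of a hen's egg is imported. Under oestrogen the liver secretes very low density lipoprotein, which carries apolipoprotein B, and vitellogenin, and the growing oocyte takes up both through related endocytic receptors on its surface. In the chicken the main oocyte receptor is VLDLR, and hens that lack a working VLDLR do not lay. LPL, lipoprotein lipase, releases fatty acids from the same particles at the wall of blood vessels in tissues other than the oocyte.

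The members described here are 7 genes of this route, the receptors VLDLR, LRP8, LRP1 and LRP2, the lipoprotein genes APOB and APOA1, and the lipase gene LPL, out of 13009 gene symbols on the array. They were taken by symbol, as every probe set annotated to no other gene, and this gave 22 of 38535 probe sets. VLDLR, LRP8, LRP1 and LPL had 1 probe set each, APOA1 had 2, APOB had 7 and LRP2 had 9. A probe set is a group of short probes on an Affymetrix expression array that together read 1 transcript as a brightness, called its signal.

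Whole-ovary RNA came from 6 hens (Gallus gallus), with 1 array per hen. In the cancer group were 3 hens (replicates 4, LB14 and LB11) whose tumours either lay within the ovary or had spread into the abdomen. The normal group was also 3 hens (replicates 36, LB3 and LB22), with no sign of ovarian cancer by eye or by histology, and the design text states that age and laying status were matched. The sources used here give no strain, age in figures, treatment or tumour stage by hen. The specimens are whole ovary, so stroma, follicles and tumour are mixed in each array, and in such bulk RNA fewer cells of a type and less RNA per cell cannot be told apart.

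Each array had been scaled by the authors to a common mean. A background limit was set per array from 59 dim Affymetrix control probe sets for sequences foreign to the chicken, and lay between 25.5 and 44.6. Marker genes listed for each cell type, chosen with earlier results of these data known, were read first. Of 9 matched oocyte and germ cell markers all 9 were above the limit on all 6 arrays, as were 10 of 11 granulosa cell markers and 4 of 4 theca cell markers. So were 79.7% of all genes read by their brightest probe set, and these counts alone do not set ovary apart from other tissues. Summed signal of the oviduct and tumour epithelium markers ran from 80321 to 128928 in cancer and from 13889.8 to 15083 in normal ovaries. Of these 8 matched markers 7 were called higher in this same comparison, so the gap is no independent check. RNA quality, read as the log2 ratio of 3' to 5' signal of the actin and GAPDH controls, was 0.14 ± 0.07 in cancer and 0.11 ± 0.11 in normal ovaries (SD, n = 3 each).

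VLDLR, LPL and APOA1 were read far above background in the hen ovary, and the other 4 genes near or below it. No member passed the test between cancer and normal ovaries. LPL came closest: its signal in cancer was less than in every normal ovary, with a ratio of means of 0.469. VLDLR was also below every normal ovary on each cancer array, by a smaller amount, and APOA1 overlapped between the groups. By limma (log2(signal + 16), fitted over 38439 probe sets with no signal filter, Benjamini-Hochberg adjustment, threshold 0.05), 0 of 22 member probe sets were called higher and 0 lower. Over all probe sets the share called was 0.0989% higher and 0.0156% lower, so a count of 0 among 22 is near the background. At an unadjusted limma p under 0.05 the count was 1 of 22 (LPL, lower in cancer) against 8.32% of all probe sets in either direction and 3.9% lower. The median log2 difference over the 22 was -0.08, against 0.02 over all probe sets, with 11 positive and 11 negative.

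**Figure D1:**
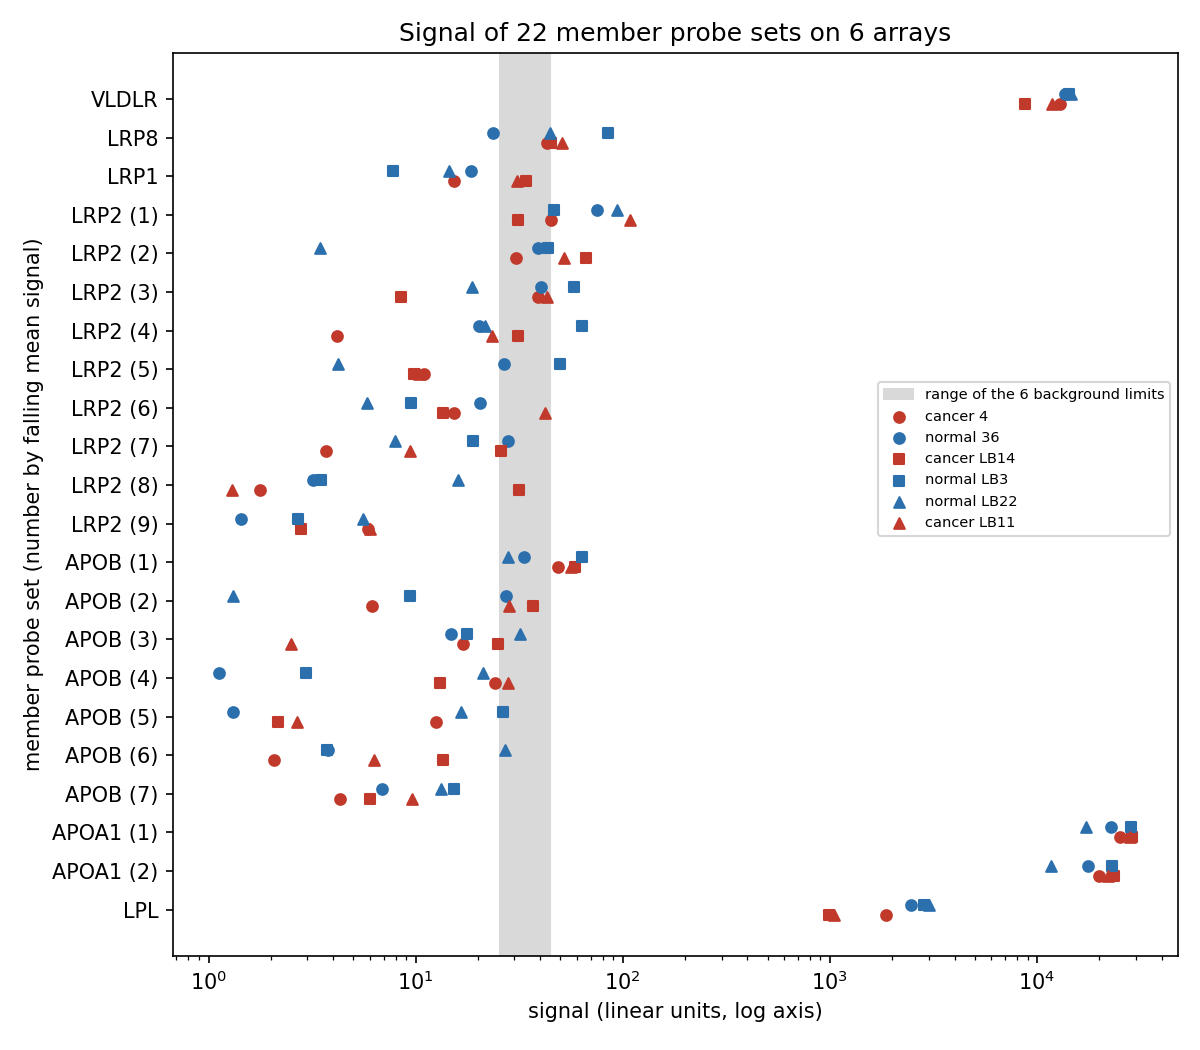
Signal of each of the 22 member probe sets (rows, several probe sets of a gene numbered by falling mean) on a log axis in the authors' linear units, with a point per array, red for cancer and blue for normal, and a grey band from 25.5 to 44.6 for the range of the background limits. VLDLR, APOA1 and LPL lie far to the right of the band, while LRP8, LRP1, LRP2 and APOB lie in or to the left of it or just past it.

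Among the receptors, VLDLR binds both very low density lipoprotein and vitellogenin in the chicken. Its signal was 12851 in cancer hen 4, 8755 in cancer hen LB14 and 11861 in cancer hen LB11, against 13609 in normal hen 36, 14288 in normal hen LB3 and 14624 in normal hen LB22. The groups did not overlap, and hen LB14 was the lowest. The normal ovaries lay close together, with a coefficient of variation of 3.65%, whereas it was 19.2% among the cancer ovaries. The signal was at least 199 times the array's background limit on every array. The group means were 11156 ± 2137 in cancer and 14174 ± 517 in normal ovaries (SD, n = 3 each), a log2 difference of -0.36 (SE 0.18, 95% interval -0.77 to 0.05, limma adjusted p = 0.659). The interval holds 0 as well as a decrease of 0.77. Without hen LB14 the difference was -0.20.

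Oocyte and germ cell markers, which share the oocyte with VLDLR, overlapped between the groups in their summed signal and in all but 1 gene. In that gene, DDX4, every cancer array lay above every normal array, against 7.73% of all genes. Of 9 matched markers 6 had a positive and 3 a negative difference, with 0 called by limma (0 at an unadjusted p under 0.05, against 10.5% of all genes read by their brightest probe set) and a median log2 difference of 0.03. Their summed signal ran from 13596 to 32727 in cancer and from 17576 to 22701 in normal ovaries. On the log2 scale the sum lay 0.55 below the normal mean in hen LB14, which also had the least VLDLR, but 0.71 above it in hen LB11, where VLDLR lay 0.26 below. Whether the probe set reads the oocyte form of chicken VLDLR, the longer form of somatic cells or both was not tested. The share of each form was not measured here.

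LRP8, a close relative of VLDLR known as a receptor for the signalling protein reelin in the brain, was near background. Its signal was 43.3, 45.1 and 51.1 in cancer hens 4, LB14 and LB11, and 23.6, 84.5 and 44.5 in normal hens 36, LB3 and LB22. All 3 cancer values lay inside the normal range. It was above the background limit on 3 of 3 cancer and 2 of 3 normal arrays, and never more than 2.19 times the limit. The log2 difference was 0.0031 (95% interval -0.88 to 0.89, limma adjusted p = 0.999), and its sign changed with the settings of the fit.

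LRP1 is a large endocytic receptor for proteases, their inhibitors and lipoprotein remnants in many cell types. Its single probe set was at or below the background limit on all 6 arrays, with signals of 15.4, 34.0 and 31.0 in cancer and 18.6, 7.74 and 14.5 in normal ovaries. No fold is given for it, and values at this level say nothing about the amount of LRP1 transcript in either group beyond that bound.

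LRP2, or megalin, takes up vitamin carriers and lipoproteins in absorptive epithelia. Of its 9 probe sets, 0 were above the limit on all arrays and 4 on none, and 13 of 54 values were above it (6 of 27 in cancer and 7 of 27 in normal ovaries). The brightest read 45.1, 31.1 and 108 in cancer hens 4, LB14 and LB11, and 75.2, 46.8 and 93.8 in normal hens 36, LB3 and LB22. Cancer held both the lowest and the highest of these 6 values. Its log2 difference was -0.27 (95% interval -1.25 to 0.71, limma adjusted p = 0.924). Across the 5 probe sets with any value above the limit the differences ran from -0.54 to 0.68, and all 5 intervals included 0.

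Among the ligands, APOB encodes the structural protein of very low density lipoprotein, made in liver and intestine. It was near or below background in the ovary on all 7 probe sets: 6 were above the limit on no array, and 4 of 42 values exceeded it. All 4 came from its brightest probe set, which read 48.8, 58.6 and 56.3 in cancer hens 4, LB14 and LB11, and 33.4, 63.3 and 27.8 in normal hens 36, LB3 and LB22. The cancer values were above the limit on all 3 arrays and the normal values in hen LB3 alone, whose signal was the highest of the 6. The log2 difference was 0.34 (95% interval -0.43 to 1.12, limma adjusted p = 0.869), 0.17 without normal hen LB22 and 0.60 without normal hen LB3.

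APOA1, the main protein of high density lipoprotein, is made in many tissues of birds beside liver and intestine. The brighter of its 2 probe sets read 25183, 28690.4 and 28242 in cancer hens 4, LB14 and LB11, and 22662.5, 28416 and 17325 in normal hens 36, LB3 and LB22. Normal hen LB3 lay among the cancer values, and normal hen LB22 was the lowest. Here the normal ovaries were the more variable group, with a coefficient of variation of 24.3% against 6.97% in cancer, the opposite of VLDLR. The means were 27372 ± 1909 in cancer and 22801 ± 5547 in normal ovaries (SD, n = 3 each), a log2 difference of 0.29 (SE 0.20, 95% interval -0.16 to 0.75, limma adjusted p = 0.792). The other probe set, for the same transcript and so no independent check, differed by 0.37 (SE 0.24, adjusted p = 0.762). Without normal hen LB22 the differences became 0.11 on each, and without normal hen LB3 they became 0.46 and 0.60. Signals this bright were below the highest of each array, 29605 to 41550.1, but the file holds no saturation flags, so compression of the signal at this level was not tested.

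LPL cuts the triglycerides carried by very low density lipoprotein. Its signal was 1866 in cancer hen 4, 988 in cancer hen LB14 and 1049 in cancer hen LB11, against 2472 in normal hen 36, 2843 in normal hen LB3 and 3011 in normal hen LB22. The groups did not overlap, hens LB14 and LB11 lay close together, and hen 4 lay between them and the normal ovaries. The means were 1301 ± 490 in cancer and 2775 ± 275 in normal ovaries (SD, n = 3 each), and the log2 difference was -1.14 (SE 0.25, 95% interval -1.71 to -0.57). Its unadjusted limma p was 0.00135 and its adjusted p over all probe sets 0.221, so it was not called. With hen 4 left out the difference was -1.43 and the adjusted p 0.0566 (0.0566 to 0.763 over 14 alternatives), and in the hens whose titles carry the prefix LB the difference was -1.51 (adjusted p = 0.286). The prefix has no stated meaning. LPL and VLDLR were the 2 of 22 probe sets (9.09%) in which every cancer array lay below every normal array, against 6.4% of all probe sets, so that count too is near the background, and 0 of 22 lay wholly above the normal arrays, against 6.88%. The suffix s_at of the LPL probe set marks probes that can match more than 1 transcript, so the reading is of LPL and any other transcript matched. Probe sets of other members share this suffix and limit, among them the brightest of APOB and the dimmer of APOA1.

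**Figure D2:**
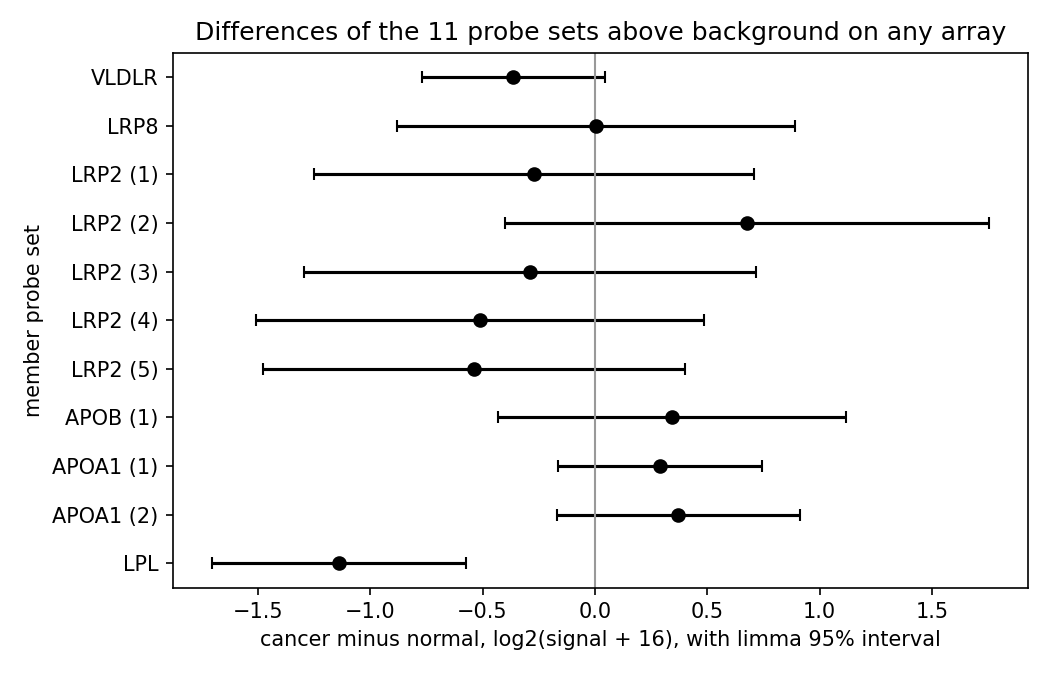
Cancer minus normal difference on the log2(signal + 16) scale (horizontal axis) with limma's 95% interval for the 11 member probe sets that were above background on at least 1 array (rows). The interval of LPL, -1.71 to -0.57, lies wholly below 0, and those of the other 10 include 0.

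A ratio of 2 genes on the same array does not depend on how the arrays were scaled to each other. The log2 ratio of LPL to VLDLR differed between cancer and normal ovaries by -0.78, and that of LPL to APOA1 by -1.43, each with no overlap between the groups. The ratio of VLDLR to APOA1 differed by -0.65. Each of these is the difference of 2 log2 differences given above, so the ratios are no independent check of LPL or VLDLR. How often ratios of other genes lie apart between the groups was not computed. The exact two-sided permutation p was 0.1, 0.1 and 0.2 (0.15, 0.15 and 0.2 after Benjamini-Hochberg adjustment over the 3 ratios), where 0.1 is the smallest that 3 arrays against 3 can give.

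Markers of the follicle's somatic cells also summed to less in cancer. The summed signal of 11 granulosa cell markers ran from 16510 to 31532 in cancer and from 45898 to 60438 in normal ovaries. Of the 11, 1 was called lower by limma, against 0.0307% of all genes, and 10 differences were negative. At an unadjusted p under 0.05 were 9 of 11, against 10.5% of all genes. The list holds steroid enzyme genes such as CYP19A1 (840 to 6073 in cancer, 11501 to 14095 in normal ovaries), so its sum may not read granulosa cells alone. The sum of 4 theca cell markers, of which LHCGR stands in both lists, ran from 2997 to 4594 in cancer and from 9808 to 20235 in normal ovaries. By limma 0 of 4 were called and 4 of 4 were negative, all 4 at an unadjusted p under 0.05, against 10.5% of all genes. Both lists were chosen with earlier results of these data known, so their counts and sums are no independent check. Relative to the normal mean, the log2 granulosa sums in hens 4, LB14 and LB11 were -1.34, -1.71 and -0.78. The theca sums were -2.12, -2.34 and -1.72, and LPL was -0.57, -1.48 and -1.40. Hen LB14 was the lowest in each, and hens 4 and LB11 came in the other order for LPL than for the marker sums. The part of these cells in the LPL result was not tested.

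LPL is also a product of adipocytes and macrophages. The 6 adipocyte markers summed to between 1592 and 3189.5 in cancer and between 1853 and 3265 in normal ovaries, and the 9 macrophage markers to between 21274 and 41964 and between 27411 and 50039. The groups overlapped in both lists. By limma 0 of 6 and 0 of 9 were called, against 0.208% of all genes called higher and 0.0307% lower. At an unadjusted p under 0.05 were also 0 of 6 and 0 of 9, against 10.5% of all genes, so these counts are near the background. Of the adipocyte differences 3 were positive and 3 negative, and of the macrophage differences 2 were positive and 7 negative, with a median of -0.31. The 6 endothelial markers summed to between 3173 and 4807 in cancer and between 3980.5 and 4919 in normal ovaries. Of the 6, 0 were called by limma and 1 had an unadjusted p under 0.05, against 10.5% of all genes. In 2 of 6, CDH5 and KDR, every cancer array lay below every normal array, against 8.4% of all genes.

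**Figure D3:**
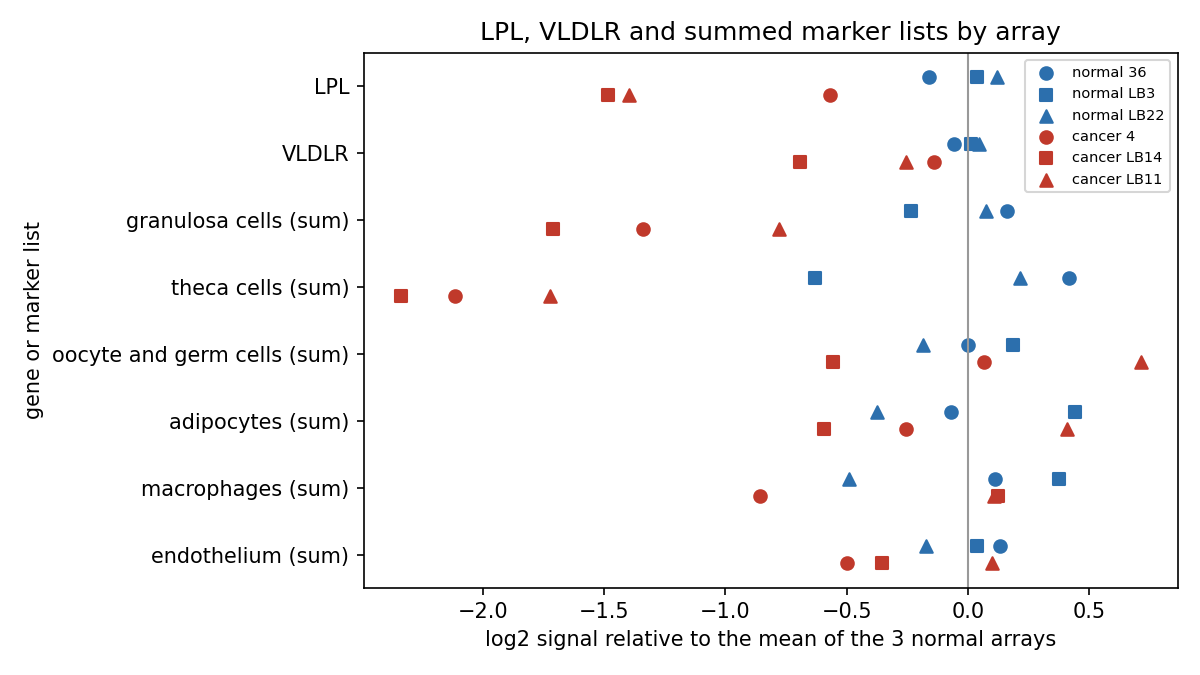
Log2 signal of LPL, of VLDLR and of the summed markers of 6 cell types (rows) on each array, relative to the mean of the 3 normal arrays (0), with red points for cancer and blue for normal. Cancer and normal points are apart for LPL, VLDLR, granulosa and theca markers, and mixed for oocyte, adipocyte, macrophage and endothelial markers.

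The other genes of the route were followed in 3 lists, each gene by its brightest probe set. Of all 13009 genes read in this way, 0.208% were called higher and 0.0307% lower, with a median log2 difference of -0.0039. In 8.4% of them every cancer array lay below every normal array, and in 7.73% above.

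Of 17 matched receptors of the lipoprotein receptor family and their helpers, 0 were called in either direction by limma, 3 had an unadjusted p under 0.05 against 10.5% of all genes, 9 differences were positive and 8 negative, and the median was 0.01. LRP4, a receptor that acts at the nerve-muscle synapse and in Wnt signalling in mammals, read 169, 341 and 190.4 in cancer hens 4, LB14 and LB11, and 406, 354 and 457 in normal hens 36, LB3 and LB22. The groups did not overlap, and the log2 difference was -0.81 (SE 0.29, limma adjusted p = 0.489), while its 4 probe sets ran from -0.81 to 1.07. CUBN, cubilin, the partner of LRP2 in absorptive epithelia, differed by 0.79 (SE 0.30, adjusted p = 0.519), and its nearest values, 411.2 in cancer hen LB14 and 410.8 in normal hen LB3, were nearly equal; its 4 probe sets ran from 0.0076 to 0.79. SORL1, a sorting receptor, differed by 0.61 (SE 0.35, adjusted p = 0.721), and by 0.23 without hen LB14. Its other probe set differed by 0.098. RELN, reelin, the ligand of VLDLR and LRP8 in the brain, differed by -0.57 (SE 0.60, adjusted p = 0.878), and by -0.26 on its other probe set. The cancer signals of RELN on the brighter probe set, 182, 325 and 1323 in hens 4, LB14 and LB11, spanned the normal range.

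Of 16 matched yolk precursors and other lipoproteins, 1 was called higher and 0 lower, 10 differences were positive and 6 negative, and the median was 0.15. VTG1, VTG2, VTG3 and APOV1, yolk precursors of the liver, read at most 4.08 times the background limit in the ovary on their brightest probe sets. TTR, also in this list, read 7.27 to 14.9 times the limit. VTG2, the major vitellogenin, read 52.6 to 79.5 over the 6 arrays, 1.25 to 2.97 times the limit, and APOV1, the small apolipoprotein that in the laying hen shields very low density lipoprotein from LPL, read 85.8, 86.1 and 182 in cancer and 83.3, 68.3 and 84.3 in normal ovaries. APOV1, at 1.77 to 4.08 times the limit, differed by 0.43 (SE 0.36, limma adjusted p = 0.829). Every cancer array lay above every normal array for APOV1, against 7.73% of all genes, but 85.8 in cancer and 84.3 in normal ovaries lay close together. The 2 probe sets of VTG2 differed by -0.43 and 0.09. VTG1 and VTG3 were above the limit on 2 and 1 of the 6 arrays. VTG1, VTG2, VTG3 and APOV1 were singled out after their values were seen, as the vitellogenins and the small apolipoprotein of very low density lipoprotein.

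The gene that was called was RBP, the riboflavin-binding protein that carries the vitamin into egg white and yolk and is taken into the oocyte. It read 1197, 11615 and 3338 in cancer hens 4, LB14 and LB11, and 54.4, 88.0 and 43.8 in normal hens 36, LB3 and LB22. Every cancer value was far above every normal one, and RBP rose by 5.57 (log2, SE 0.67, adjusted p = 0.0209 by limma). The call was lost in 6 of 14 other fits, with adjusted p from 0.0615 to 0.144 and the sign kept, namely with a pseudocount of 64, with no variance trend, within the LB hens, and on leaving out normal hen 36, LB3 or LB22. APOD, a carrier of small lipids of the lipocalin family, read 775, 4599 and 506 in cancer hens 4, LB14 and LB11, and 109.8, 156 and 136 in normal hens 36, LB3 and LB22. It was higher on every cancer array than on any normal one, with a log2 difference of 3.06 (SE 0.68, limma adjusted p = 0.223), and was not called. Without hen LB14 its difference was 2.11 (adjusted p = 0.0766, and 0.0766 to 0.731 over 14 alternatives). APOH, a plasma glycoprotein of the liver, differed by 1.20 (SE 1.08, adjusted p = 0.849) and by 0.014 without hen LB14, in which it read 597. CLU, clusterin, differed by 0.51 (SE 0.30, adjusted p = 0.72), by 0.85 without cancer hen 4, by 0.28 without cancer hen LB11 and by 0.34 without normal hen LB22.

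The hepatocyte markers, of which APOH, VTG2 and APOV1 are members, summed to between 1470.4 and 3327 in cancer and between 1084 and 1899 in normal ovaries. Of 10 matched markers 0 were called by limma, 2 had an unadjusted p under 0.05 against 10.5% of all genes, and 7 were above the limit on all arrays against 79.7% of all genes.

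Of 22 matched lipases and genes of lipid transfer and uptake, 0 were called by limma, 3 had an unadjusted p under 0.05 against 10.5% of all genes, 9 differences were positive and 13 negative, and the median was -0.15. LIPG, endothelial lipase, which acts mainly on phospholipids of high density lipoprotein, read 2555, 1409.8 and 2721 in cancer hens 4, LB14 and LB11, and 4513, 2793 and 3807 in normal hens 36, LB3 and LB22. Like LPL it was lower on every cancer array than on any normal one, as 1 of 22 genes of this list, against 8.4% of all genes. Its log2 difference was -0.76 (SE 0.28, limma adjusted p = 0.501), and -0.46 without hen LB14. The nearest values of the groups, 2721 in hen LB11 and 2793 in hen LB3, lay close together. FABP3, a fatty acid binding protein of the cytosol, differed by 1.15 (SE 0.32, limma adjusted p = 0.349), and by 0.75 without hen LB14. It was higher on all 3 cancer arrays than on any normal one. LCAT, which esterifies cholesterol on high density lipoprotein, differed by 1.19 (SE 0.46, limma adjusted p = 0.537) with overlap between the groups. GPIHBP1, which holds LPL on capillaries in mammals, read 54.7, 5697 and 12.2 in cancer hens 4, LB14 and LB11, and 5.37, 7.02 and 8.17 in normal hens 36, LB3 and LB22. It was at or below the limit in every normal ovary and in hen LB11. No ratio of means is given, since the signal rests on hen LB14. The fitted log2 difference of 3.30 (limma adjusted p = 0.649) became 0.97 without that hen. With only a bound in the normal group, the fitted difference also moved with the pseudocount, to 4.38 with 1 and 2.40 with 64.

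**Figure D4:**
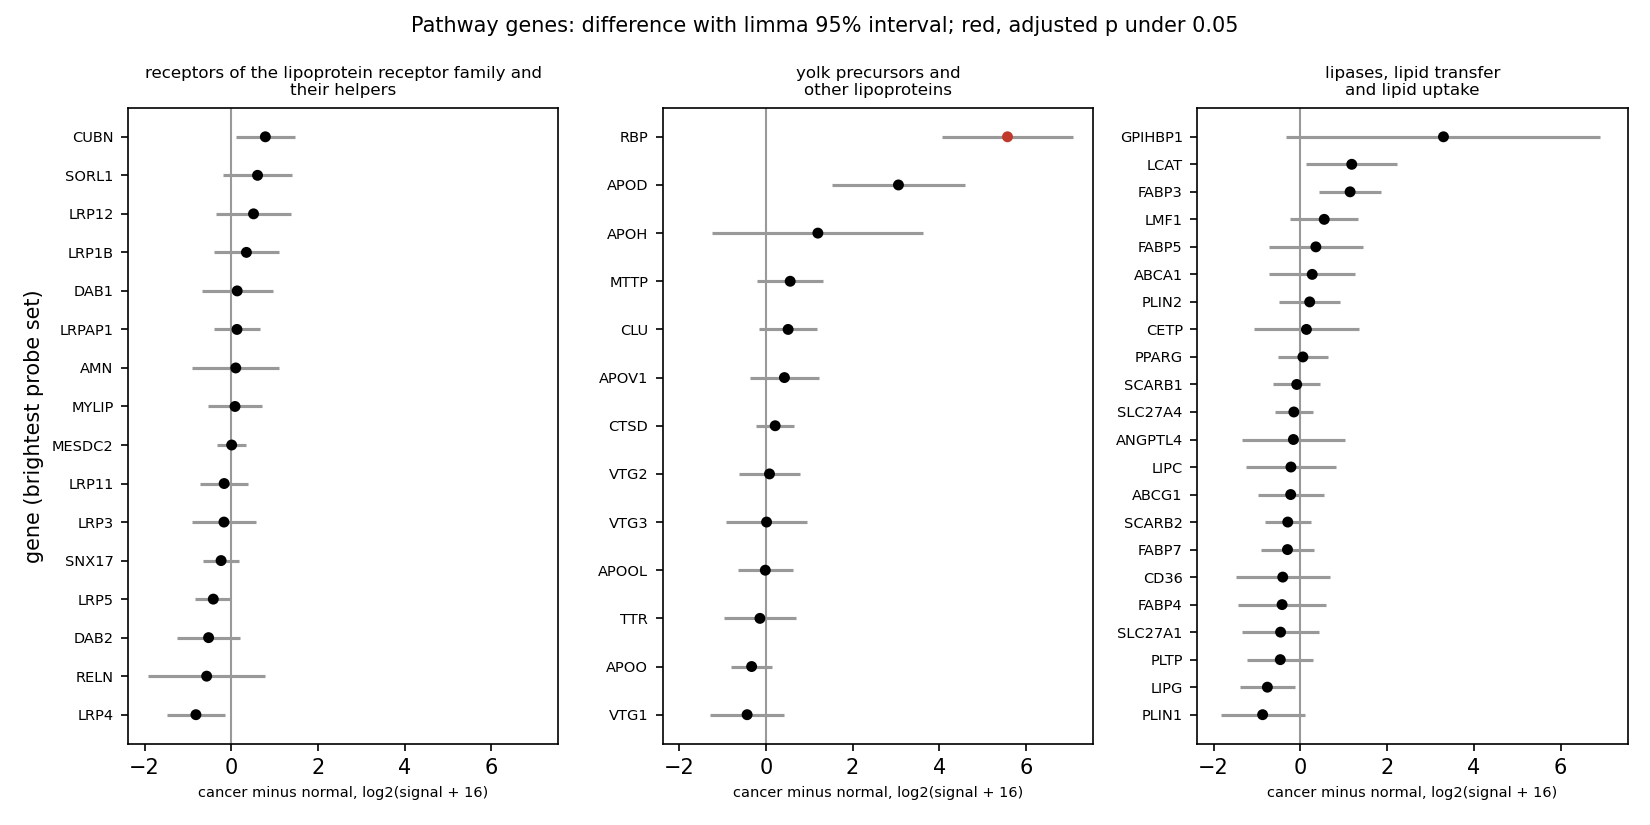
Cancer minus normal difference on the log2(signal + 16) scale (horizontal axis) with limma's 95% interval for the genes of the 3 lists that were above background on at least 1 array, each by its brightest probe set (rows). RBP, in red, is the gene past the adjusted threshold, and the widest interval is that of GPIHBP1, bright in hen LB14.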

How the data were processed

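The deposited values are linear signal intensities, 1 per probe set and array, which the authors made with GCOS (named in the submitters' processing notes, with no version or settings). The values show that each array was scaled (mean after trimming 2% at each end 500.1 on every array), so changes in total messenger RNA are hidden. The labels name separate hens. Of 38535 probe sets, 96 Affymetrix controls were left out.

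Signals were compared as log2(signal + 16) with limma 3.58.1 in R 4.3.3 (lmFit, eBayes with a trend, two-sided). A log2 difference on this scale understates the change of dim genes. No signal filter was used, since the members are taken without one; 4 of 22 member probe sets reach the 40th percentile of mean signal (66.9). The background limit is the 95th percentile of the 59 controls on each array; whether their targets were spiked in is not stated. A probe set at or below it on all 3 arrays of a group has only a bound there, and one so in both groups has no fold. Names came from the platform annotation, exact symbols only (27178 probe sets with 1 symbol, 177 with several, 11180 with none).

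The members and lists were chosen with earlier results of these data known. Named list genes are those called, filled up to 4 per list by size among genes with a mean at or above the 40th percentile; a gene's brightest probe set represents it. The limma step was tested on simulated data. Alternatives were pseudocounts of 1 and 64, the filter, quantile normalization, no trend, array weights, a block for the title prefix, LB hens alone and leaving out each hen. Figures used matplotlib 3.10.9.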

Additional observations from a re-analysis of the deposited data

How the results depend on the processing

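In each of 14 alternatives 0 of the member probe sets were called by limma, higher or lower. LPL kept a negative difference in all 14 (-1.51 to -0.97, adjusted p 0.0566 to 0.763, unadjusted p under 0.05 in 14), as did VLDLR (-0.50 to -0.20), and both APOA1 probe sets stayed positive. LRP8, at background, changed sign with a pseudocount of 64 (-0.023), with quantile normalization (-0.076) and in the LB hens alone (-0.29), and ran from -0.32 to 0.35 when 1 hen was left out. LRP2 ran from -0.68 to 0.025 on its brightest probe set and from -0.59 to 0.12 on another when 1 hen was left out. RELN was 0.012 in the LB hens alone and ran from -1.36 to 0.023 when 1 hen was left out, positive without hen 4. Over all probe sets, the 38 called higher became 23 without a trend, 11 within the LB hens and 20 to 139 when 1 hen was left out, with 139 without hen LB11. The 6 called lower became 10 with a pseudocount of 1 or with the filter, 3 with a pseudocount of 64, 2 without a trend, 0 within the LB hens (1130 at an unadjusted p under 0.05) and 0 to 14 when 1 hen was left out (0 without normal hen LB22, with 962 at an unadjusted p under 0.05). The causes were not tested. No paired analysis was possible because the groups share no replicate numbers. Depth is set here by 3 arrays per group and by the background limits, under which 11 of 22 member probe sets lay on all arrays. Above the limits on all arrays were 4 of 22, against 57.8% of all probe sets.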

Other observations

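The rule for naming genes with a similar profile asked for a member whose brightest probe set spans over 2 log2 units across the 6 arrays, and no member did, the widest being LPL at 1.59. For LPL and VLDLR the nearest profiles are given all the same, chosen with their values in view. Among 17805 probe sets with 1 named gene and a mean at or above the 40th percentile, the mean-centred log2 profile closest to LPL over the 6 arrays was that of DOCK10, with a root mean square distance of 0.044. DOCK10 read 349, 183 and 195 in cancer hens 4, LB14 and LB11, and 447, 507 and 557 in normal hens 36, LB3 and LB22. The next was NFXL1, at a distance of 0.094. For VLDLR the nearest were AMD1, an enzyme of polyamine synthesis, at 0.046, and TERF2, a telomere-binding protein, at 0.049. With 6 arrays and this many probe sets, near profiles are a description of these libraries and carry no test.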
